A study of Mus musculus with 9 samples.

Results

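The 10 genes described here encode matricellular and repair matrix proteins: Postn, Tnc, Tnn, Thbs1, Thbs2, Comp, Fn1, Spp1, Sparc and Cthrc1. They were taken by symbol from the gene table, which lists 54532 genes, and all 10 were among the 14645 genes tested, those with at least 1 FPKM (fragments per kilobase of gene length, scaled to the size of the library) in at least 3 of 9 libraries. The libraries were made from mouse skin of wild-type genotype and form 3 groups of 3: healthy control skin, skin given bleomycin, and skin given bleomycin together with topical nitrate. The last group is called nitrate below, and no group analysed here received nitrate without bleomycin. Bleomycin is a DNA-breaking antibiotic used to produce skin fibrosis in mice as a model of systemic sclerosis, and nitrate is an anion that can be reduced to nitrite and nitric oxide in tissue. No source used here gives the strain, sex, age, body site, doses, times, or any vehicle given to the control skin. The labels do not say whether the libraries came from separate animals, so every p-value measures only the spread between these libraries.

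Matricellular proteins are secreted into the matrix but serve mainly as signals and adaptors rather than as load-bearing fibres. They bind collagens, growth factors and cell-surface receptors such as integrins, syndecans and CD44, and so alter how cells adhere, migrate and respond to growth factors. Most are scarce in resting adult skin, appear in the provisional matrix of healing wounds, and persist in fibrotic skin. Fibronectin is a structural part of that provisional matrix, and SPARC is a collagen-binding member that resting dermal fibroblasts also make.

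The 9 libraries held 15804050 to 18352592 reads, recovered from the FPKM values. Mitochondrially encoded transcripts took 6.61 to 8.02% of reads in control and 2.84 to 4.49% in the other groups. The libraries carried the markers of skin, with a summed level of 2342 to 9931 FPKM for 8 epidermal genes and 1894 to 6515 FPKM for 10 fibroblast genes, none of them at 0 in every library. The content of growing hair follicle differed between libraries of the same group. The summed level of 15 follicle genes was 5.21, 526 and 2565 FPKM in control 1, 2 and 3, 55.2, 1797 and 4365 FPKM in bleomycin 1, 2 and 3, and 9731, 2127 and 13767 FPKM in nitrate 1, 2 and 3. In bulk skin, fewer cells of a type and less RNA per cell cannot be told apart.

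The promoters of 6 of the 10 genes were held by the RefSeq table used here (GRCm38.p6). Those of Postn, Tnc, Thbs2 and Spp1 are printed, which had large estimates with bleomycin and whose windows overlap no annotated exon of the same strand. The windows of Tnn and Sparc do overlap such exons and were searched but are not printed. Each is the 250 bases before the RefSeq start nearest to the start in the gene table, 5′ to 3′ on the gene's own strand, in lower case with motif matches in capitals. The windows are chr3:54360857-54361106 on the plus strand for Postn, chr4:64047016-64047265 on the minus strand for Tnc, chr17:14694263-14694512 on the minus strand for Thbs2 and chr5:104434861-104435110 on the plus strand for Spp1.
Postn: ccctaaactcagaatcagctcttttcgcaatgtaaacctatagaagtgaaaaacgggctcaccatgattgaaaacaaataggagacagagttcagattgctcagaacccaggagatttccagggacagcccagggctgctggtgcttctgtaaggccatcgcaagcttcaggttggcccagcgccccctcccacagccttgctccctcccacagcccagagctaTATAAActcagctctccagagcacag
Tnc: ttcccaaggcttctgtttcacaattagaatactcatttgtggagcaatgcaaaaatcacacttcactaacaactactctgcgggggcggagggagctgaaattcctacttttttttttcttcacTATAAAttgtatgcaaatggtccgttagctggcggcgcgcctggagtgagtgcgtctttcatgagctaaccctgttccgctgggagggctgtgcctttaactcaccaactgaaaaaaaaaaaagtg
Thbs2: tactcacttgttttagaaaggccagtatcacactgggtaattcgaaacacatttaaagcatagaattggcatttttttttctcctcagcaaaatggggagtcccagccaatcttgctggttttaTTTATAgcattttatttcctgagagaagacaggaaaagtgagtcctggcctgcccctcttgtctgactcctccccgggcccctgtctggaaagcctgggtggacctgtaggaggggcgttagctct
Spp1: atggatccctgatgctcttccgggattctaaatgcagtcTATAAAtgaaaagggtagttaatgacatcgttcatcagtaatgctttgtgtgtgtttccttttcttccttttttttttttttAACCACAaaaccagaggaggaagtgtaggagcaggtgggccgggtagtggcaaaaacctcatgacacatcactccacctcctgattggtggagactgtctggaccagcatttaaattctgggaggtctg
The TATA box, AP-1, TEAD and RUNX motifs were searched on both strands. In that order their letters were TATAAA for the first, TGANTCA for the second, GGAATG for the third and AACCACA for the fourth. TATAAA was found in 4 of the 6 windows searched, the 4 printed ones, in Thbs2 as TTTATA, its form on the opposite strand. Tnn held GGAATG from -160 to -155 and none of the other motifs, and Sparc held none. In Postn it lay from -26 to -21, counted from the RefSeq start, in Tnc and in Thbs2 from -126 to -121, and in Spp1 from -211 to -206. Spp1 also held AACCACA from -129 to -123. Over 32851 windows of the same length, 12.4% held TATAAA, 6.75% TGANTCA, 12.6% GGAATG and 4.4% AACCACA. A match describes the letters of the window and is not a measured binding site.

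Bleomycin skin held more RNA of most of these genes than control skin. In limma, with calls made at a p under 0.05 after Benjamini-Hochberg adjustment across all 14645 genes, 6 of the 10 genes rose (Postn, Tnc, Tnn, Thbs1, Thbs2 and Fn1) and 1, Sparc, fell. Among all tested genes 8.43% were called in this comparison, 4.74% higher and 3.69% lower. The bleomycin and control libraries did not overlap for 8 genes, the 7 higher ones being the 6 called and Spp1, and the lower one Sparc, against 35.7% of all tested genes without overlap (18.4% higher and 17.3% lower). The median difference of log2(FPKM + 1) was 1.60 over the 10 genes and 0.01 over all tested genes. Differences below are on this scale, with the standard error from limma, and adding 1 shrinks the difference of genes near 1 FPKM.

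**Figure D1:**
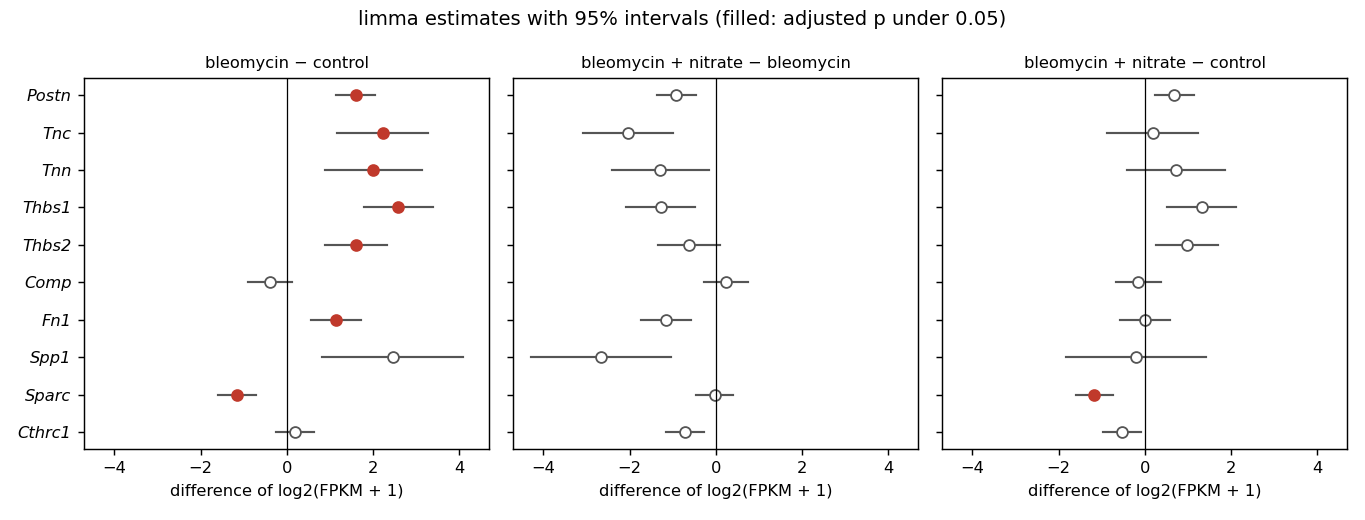
Differences of log2(FPKM + 1) from limma for the 10 genes (rows) in 3 comparisons (panels), with 95% intervals; filled points have an adjusted p under 0.05. In bleomycin against control 6 genes lie right of 0 and 1 lies left as filled points, from 2.59 for Thbs1 to -1.15 for Sparc; no point is filled in nitrate against bleomycin.

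No member passed the test between nitrate and bleomycin. Limma called 0 of 14645 genes there (0%), and the smallest adjusted p of any gene was 0.0619. At an unadjusted p under 0.05 the same fit held 2624 genes (17.9%), among them 7 of the 10 members, and voom on the recovered reads called 0 genes. The estimates were below 0 for 9 of the 10 members, with a median of -1.03 against -0.0029 for all tested genes. The nitrate libraries lay wholly below the bleomycin libraries for 6 members, Postn, Tnc, Tnn, Fn1, Spp1 and Cthrc1, where 11.8% of all tested genes did so. Both comparisons use the same bleomycin libraries, so the error in the bleomycin mean enters both estimates with opposite signs.

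Between nitrate and control, 1 member was called, Sparc, which was lower. In this comparison 8.53% of tested genes were called, 3.63% higher and 4.9% lower. The groups did not overlap for Postn, Thbs1, Thbs2 and Tnn, which were higher in nitrate, or for Sparc and Cthrc1, which were lower, where 34.8% of all tested genes did not overlap (17.3% higher and 17.5% lower). The members' median was 0.09. This comparison shares its libraries with both of the others.

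**Figure D2:**
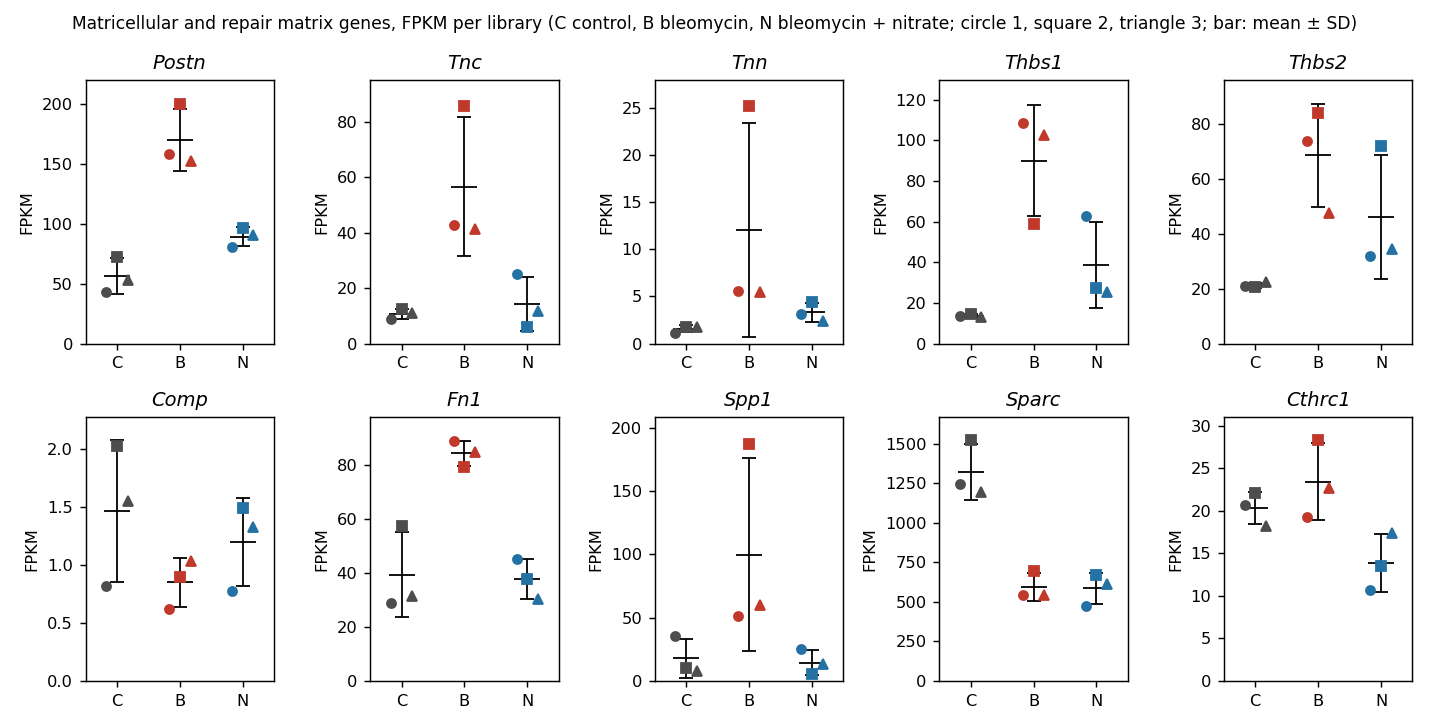
FPKM of each gene (panels, each with its own axis from 0) in every library of control (C), bleomycin (B) and nitrate (N); symbols mark library numbers and bars the mean ± SD of 3 libraries. Postn, Tnc, Tnn, Thbs1, Thbs2, Fn1 and Spp1 have every bleomycin point above every control point, and Sparc has every control point above the others.

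Postn encodes periostin, a fasciclin-domain protein that binds collagen and integrins and takes part in collagen cross-linking. The gene (ENSMUSG00000027750, mm10 chr3:54361109-54391037, plus strand) measured 43.2, 72.6 and 53.4 FPKM in control 1, 2 and 3, 159, 200.1 and 152 FPKM in bleomycin 1, 2 and 3, and 80.8, 97.0 and 90.4 FPKM in nitrate 1, 2 and 3. The 3 groups did not overlap, with nitrate between the other 2. Postn rose from 56.4 ± 14.9 to 170.4 ± 25.9 FPKM with bleomycin (SD, n = 3; 1.60 ± 0.20, adjusted p = 0.00567 by limma). In nitrate it was 89.4 ± 8.12 FPKM, which gave -0.92 ± 0.20 against bleomycin (adjusted p = 0.112 by limma) and 0.68 ± 0.20 against control (adjusted p = 0.0670 by limma). Among the members it had the narrowest relative spread within the nitrate group.

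Tnc and Tnn encode tenascin-C and tenascin-N, oligomeric glycoproteins that modulate adhesion to fibronectin. Tnc (ENSMUSG00000028364, mm10 chr4:63959785-64047015, minus strand) measured 8.83, 12.4 and 11.1 FPKM in control 1, 2 and 3, 42.7, 85.8 and 41.5 FPKM in bleomycin 1, 2 and 3, and 25.04, 6.01 and 11.6 FPKM in nitrate 1, 2 and 3. Each bleomycin library lay above every other library, and the nitrate libraries spanned the control range, from below the lowest to above the highest. Tnc rose with bleomycin by 2.22 ± 0.46 (adjusted p = 0.0242 by limma), from 10.8 ± 1.79 to 56.7 ± 25.2 FPKM. Nitrate, at 14.2 ± 9.78 FPKM, differed by -2.04 ± 0.46 from bleomycin (adjusted p = 0.117 by limma) and by 0.18 ± 0.46 from control (adjusted p = 0.809 by limma). The last estimate was -0.31 without nitrate 1, the nitrate library highest in Tnc.

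Tnn was called too, from a much lower base. Tnn (ENSMUSG00000026725, mm10 chr1:160085029-160153580, minus strand) measured 1.17, 1.81 and 1.79 FPKM in control 1, 2 and 3, 5.54, 25.2 and 5.49 FPKM in bleomycin 1, 2 and 3, and 3.15, 4.43 and 2.40 FPKM in nitrate 1, 2 and 3. Bleomycin 2 stood more than 4-fold above the other bleomycin libraries, yet all 3 groups were free of overlap. Tnn rose from 1.59 ± 0.364 to 12.1 ± 11.4 FPKM with bleomycin (2.01 ± 0.49, adjusted p = 0.0429 by limma). Without bleomycin 2 the estimate was 1.34 and the call held (adjusted p = 0.0211 by limma). The call was lost with voom on the recovered reads (2.54, adjusted p = 0.0801), with only the 2 groups compared in the fit (adjusted p = 0.0642) and with no filter (adjusted p = 0.0935), and in 11 of 20 alternatives in all. In nitrate it was 3.33 ± 1.02 FPKM, -1.29 ± 0.49 from bleomycin (adjusted p = 0.225 by limma; -0.62 without bleomycin 2) and 0.72 ± 0.49 from control (adjusted p = 0.341 by limma). The brain tenascin Tnr stayed under 0.1 FPKM in every library and was not tested.

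Thrombospondins are multimeric, calcium-binding glycoproteins, and thrombospondin-1 is known for activating latent TGF-beta and for inhibiting vessel growth. Thbs1 (ENSMUSG00000040152, mm10 chr2:118111876-118127133, plus strand) measured 13.4, 14.5 and 12.9 FPKM in control 1, 2 and 3, 109, 58.9 and 103 FPKM in bleomycin 1, 2 and 3, and 62.8, 27.3 and 25.5 FPKM in nitrate 1, 2 and 3. Control libraries were tight, every treated library lay above them, and nitrate 1 exceeded bleomycin 2. Thbs1 had the largest difference of the 10 members between bleomycin and control, 2.59 ± 0.35 (13.6 ± 0.845 to 90.1 ± 27.2 FPKM, adjusted p = 0.00703 by limma), which was the 67th highest of the 14645 genes. In nitrate it was 38.5 ± 21.1 FPKM, with -1.28 ± 0.35 against bleomycin (adjusted p = 0.138 by limma) and 1.32 ± 0.35 against control (adjusted p = 0.0539 by limma). The difference from control passed the test without nitrate 2 (1.49, adjusted p = 0.0361), with voom on the recovered reads (adjusted p = 0.0430), with quantile normalization (adjusted p = 0.0488) and with sample weights (adjusted p = 0.0238). In the other 16 of 20 alternatives it did not pass, with an adjusted p of up to 0.1585 by limma.

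Thbs2 encodes thrombospondin-2, which lacks the sequence that activates TGF-beta and shares the anti-angiogenic repeats. Thbs2 (ENSMUSG00000023885, mm10 chr17:14665500-14694235, minus strand) measured 21.0, 20.4 and 22.3 FPKM in control 1, 2 and 3, 73.8, 84.1 and 47.6 FPKM in bleomycin 1, 2 and 3, and 32.0, 72.1 and 34.4 FPKM in nitrate 1, 2 and 3. Both treated groups lay above control, and nitrate 2 sat within the bleomycin range. Thbs2 rose from 21.3 ± 0.947 to 68.5 ± 18.8 FPKM with bleomycin (1.60 ± 0.32, adjusted p = 0.0211 by limma). The nitrate level, 46.1 ± 22.5 FPKM, gave -0.62 ± 0.32 against bleomycin (adjusted p = 0.346 by limma) and 0.98 ± 0.32 against control (adjusted p = 0.0812 by limma). In the nitrate group the 2 thrombospondins were thus highest in different libraries, Thbs1 in nitrate 1 and Thbs2 in nitrate 2.

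Comp, the cartilage oligomeric matrix protein or thrombospondin-5, guides collagen fibril assembly in tendon and cartilage. It was the scarcest member, with 30 to 101 reads per library (ENSMUSG00000031849, mm10 chr8:70373558-70382066, plus strand). It measured 0.816, 2.02 and 1.55 FPKM in control 1, 2 and 3, 0.620, 0.895 and 1.03 FPKM in bleomycin 1, 2 and 3, and 0.771, 1.49 and 1.33 FPKM in nitrate 1, 2 and 3. All 3 groups overlapped, with library 1 the lowest of each. No comparison passed the test, the interval for bleomycin against control running from -0.90 to 0.12 (estimate -0.39 ± 0.22, adjusted p = 0.305 by limma). Of 10 tendon and cartilage genes 5 passed the filter, with a summed level over all 10 of 40.9 to 57.0 FPKM in control, 35.3 to 40.6 FPKM in bleomycin and 55.1 to 67.1 FPKM in nitrate. The tendon genes Scx, Tnmd and Fmod had group means of 5.26 to 9.12, 7.84 to 18.7 and 11.4 to 16.6 FPKM and were not called, while the cartilage genes Col2a1, Acan, Matn1 and Col9a1 had group means under 0.4 FPKM. Sox9, which hair follicles also express, was the 1 gene of the list that was called, higher in nitrate than in control (6.03 ± 2.13 FPKM in control and 21.1 ± 5.67 FPKM in nitrate, adjusted p = 0.0201 by limma).

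Fn1 encodes fibronectin, the adhesive glycoprotein on which provisional matrix and new collagen are laid down. Fn1 (ENSMUSG00000026193, mm10 chr1:71585520-71653200, minus strand) measured 28.9, 57.4 and 31.5 FPKM in control 1, 2 and 3, 88.6, 79.3 and 84.6 FPKM in bleomycin 1, 2 and 3, and 45.1, 37.6 and 30.5 FPKM in nitrate 1, 2 and 3. The bleomycin libraries lay close together above all others, and the nitrate libraries fell within the control range. Fn1 rose from 39.3 ± 15.8 to 84.2 ± 4.67 FPKM with bleomycin (1.15 ± 0.25, adjusted p = 0.0307 by limma). Nitrate, at 37.7 ± 7.34 FPKM, gave -1.15 ± 0.25 against bleomycin (adjusted p = 0.115 by limma). Against control it gave -0.01 ± 0.25 (95% interval -0.59 to 0.57, adjusted p = 0.990 by limma).

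Spp1 encodes osteopontin, a secreted phosphoprotein that binds integrins and CD44 and is made by activated macrophages among other cells. Spp1 (ENSMUSG00000029304, mm10 chr5:104435118-104441050, plus strand) measured 35.4, 10.1 and 8.03 FPKM in control 1, 2 and 3, 51.3, 188 and 60.4 FPKM in bleomycin 1, 2 and 3, and 24.9, 5.47 and 13.2 FPKM in nitrate 1, 2 and 3. Bleomycin lay above both other groups, which overlapped each other, and control 1 and bleomycin 2 stood far above the rest of their groups. The difference between bleomycin and control was the second largest of the members, 2.46 ± 0.71, and did not pass the test (17.9 ± 15.3 and 99.8 ± 76.2 FPKM, adjusted p = 0.0711 by limma). It was 3.08 without control 1 (adjusted p = 0.0531 by limma) and 1.88 without bleomycin 2 (adjusted p = 0.181 by limma). The nitrate level was 14.5 ± 9.78 FPKM, and its difference from bleomycin was the largest of the members, -2.66 ± 0.71 (adjusted p = 0.136 by limma).

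Sparc, or osteonectin, binds collagen and calcium and assists procollagen processing and fibril assembly. Sparc (ENSMUSG00000018593, mm10 chr11:55394500-55423183, minus strand) was the most abundant member per length, with 1245, 1523 and 1199 FPKM in control 1, 2 and 3, 541, 696 and 547 FPKM in bleomycin 1, 2 and 3, and 475, 668 and 616 FPKM in nitrate 1, 2 and 3. Every control library lay above every treated one, and the bleomycin and nitrate libraries overlapped. Sparc fell by 1.15 on the log2 scale with bleomycin (SE 0.19; 1322 ± 176 to 594 ± 87.8 FPKM, adjusted p = 0.0118 by limma). Nitrate, at 586 ± 99.8 FPKM, was lower than control by a similar amount (-1.18 ± 0.19, adjusted p = 0.0167 by limma) and differed from bleomycin by -0.02 ± 0.19 (95% interval -0.46 to 0.41, adjusted p = 0.961 by limma). Of 10 fibroblast markers, 3 (Col1a1, Col1a2 and Col3a1) fell with bleomycin, where 3.69% of all tested genes did. The other markers were not called, with estimates from -1.12 for Dcn to -0.02 for Vim. The summed level of the 10 was 5070 to 6515 FPKM in control, 2012 to 2954 FPKM in bleomycin and 1894 to 2732 FPKM in nitrate. The 3 collagen genes made up most of that sum in every library. Markers of skeletal muscle, endothelium and vessel smooth muscle were lower beside Sparc, while epidermal markers were higher. The 8 epidermal genes summed to 2342 to 4094 FPKM in control, 6714 to 9931 FPKM in bleomycin and 4841 to 8107 FPKM in nitrate. With bleomycin 3 of the 8 rose, where 4.74% of all tested genes did. The summed level of 10 skeletal muscle genes was 15355 to 22847 FPKM in control, 3181 to 14169 FPKM in bleomycin and 2463 to 11314 FPKM in nitrate. With bleomycin 0 of the 10 were called, and in nitrate 3 were lower than in control, where 4.9% of all tested genes were. For 10 endothelial genes it was 175 to 198 FPKM in control, 108 to 127 FPKM in bleomycin and 67.2 to 127 FPKM in nitrate, and for 6 vessel smooth muscle genes 773 to 1013, 341 to 899 and 219.7 to 668 FPKM in the same order. Of these 6 genes, Des alone measured 533 to 743, 195 to 761 and 93.0 to 551 FPKM and was not called. Myh11 was 36.2 ± 2.13 FPKM in control, 10.7 ± 2.20 in bleomycin and 9.61 ± 3.90 in nitrate. It was called lower in both groups against control (adjusted p = 0.00856 and 0.0114 by limma). With bleomycin Myh11 was the only 1 of the 6 called, and in nitrate against control 2 were lower, Myh11 and Cnn1. Among all tested genes 3.69% and 4.9% were called lower in these 2 comparisons. The parts of fibroblast, muscle, vessel and epidermal content in the change of Sparc were not tested.

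Cthrc1 encodes a secreted collagen triple helix repeat protein made by activated fibroblasts. Cthrc1 (ENSMUSG00000054196, mm10 chr15:39076932-39087121, plus strand) measured 20.7, 22.1 and 18.3 FPKM in control 1, 2 and 3, 19.3, 28.4 and 22.6 FPKM in bleomycin 1, 2 and 3, and 10.7, 13.6 and 17.4 FPKM in nitrate 1, 2 and 3. Bleomycin and control overlapped, and every nitrate library was below both. The difference between bleomycin and control was 0.18 ± 0.19 (95% interval -0.26 to 0.62, adjusted p = 0.575 by limma). Nitrate, at 13.9 ± 3.38 FPKM, differed by -0.72 ± 0.19 from bleomycin (adjusted p = 0.136 by limma) and by -0.54 ± 0.19 from control (adjusted p = 0.104 by limma). Of 20 alternatives, the difference from control passed the test only with sample weights (-0.67, adjusted p = 0.0464 by limma).

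Several calls between bleomycin and control lay near the threshold and were lost when 1 library was left out, while the estimates kept their direction and most of their size. Postn and Thbs1 passed the test whichever 1 library was left out, with adjusted p of 0.00700 to 0.0226 and 0.00352 to 0.0335 by limma. Sparc missed it without control 2 (0.0509). Thbs2 missed it without control 1, 2 or 3 or bleomycin 1 or 2 (0.0583 to 0.0812), Fn1 without control 1 or 3 or any bleomycin library (0.0688 to 0.0928), and Tnc without any 1 of the control or bleomycin libraries (0.0555 to 0.0777). In those fits the estimates were 1.44 to 1.64 for Thbs2, 0.97 to 1.19 for Fn1 and 1.89 to 2.40 for Tnc. Tnn missed it without any control library, bleomycin 1 or 3, or nitrate 1 or 3 (0.0511 to 0.124). Without both control 1 and bleomycin 1, the pair lowest in follicle genes, all 7 calls were lost, with Postn at 0.0501, Thbs1 at 0.0729, Sparc at 0.101, Tnc and Tnn at 0.127, Thbs2 at 0.134 and Fn1 at 0.167, while the estimates stayed between 0.93 and 2.42 for the 6 higher genes. In nitrate against control, Sparc missed the test without control 1 (0.0580), control 2 (0.0709) or nitrate 3 (0.0537).

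Sparc carried most of the summed level of the 10 genes in control skin and about as much as the other 9 together after bleomycin. The sum was 1418, 1737 and 1359 FPKM in control 1, 2 and 3, 1090, 1446 and 1065 FPKM in bleomycin 1, 2 and 3, and 760.2, 933 and 843 FPKM in nitrate 1, 2 and 3. Without Sparc it was 173, 213 and 161 FPKM in control, 549, 750.3 and 518 FPKM in bleomycin, and 285, 265 and 227 FPKM in nitrate. The groups of this second sum did not overlap, with bleomycin highest and nitrate between. Sparc made up 87.7 to 88.2% of the sum in control, 48.1 to 51.3% in bleomycin and 62.5 to 73.1% in nitrate.

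**Figure D3:**
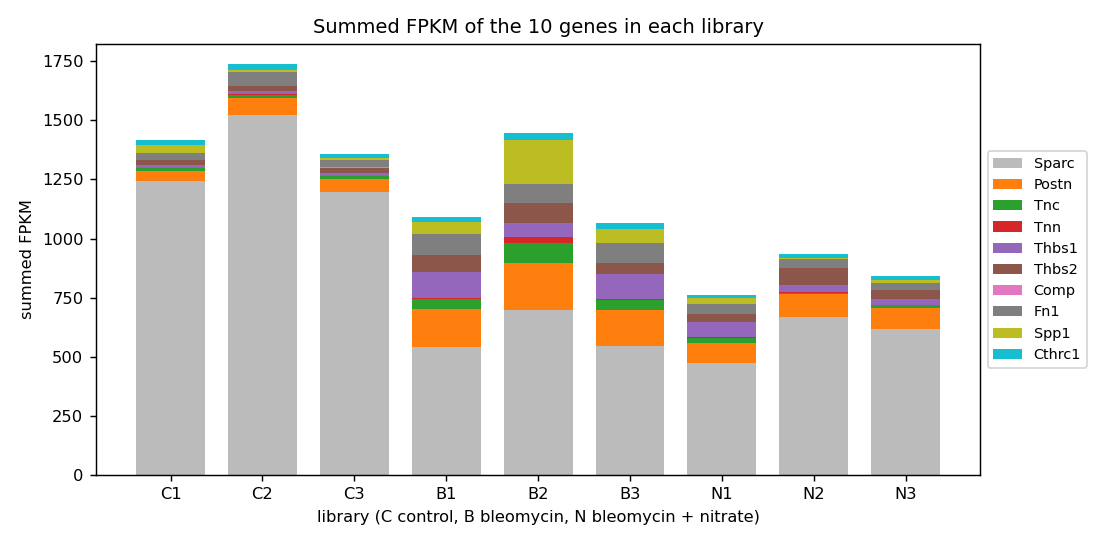
Summed FPKM of the 10 genes in each library, stacked by gene, for control (C1 to C3), bleomycin (B1 to B3) and nitrate (N1 to N3). The grey Sparc block holds 87.7 to 88.2% of each control bar and 48.1 to 51.3% of each bleomycin bar.

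The libraries of a group did not rank alike for all members. Among the bleomycin libraries, bleomycin 2 was the highest in Postn, Tnc, Tnn, Thbs2, Spp1, Sparc and Cthrc1 and the lowest in Thbs1 and Fn1. Among the nitrate libraries, nitrate 1 was the highest in Tnc, Thbs1, Fn1 and Spp1 and the lowest in Postn, Thbs2, Sparc, Cthrc1 and Comp. Nitrate 2 was the highest in Postn, Tnn, Thbs2, Sparc and Comp and the lowest in Tnc and Spp1.

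Levels were also set against Col1a1, the main fibrillar collagen transcript of the dermis, within each library. Col1a1 itself fell with bleomycin, from 2661 ± 336 to 937 ± 240.3 FPKM (-1.53 ± 0.23, adjusted p = 0.00886 by limma), and was 860 ± 177 FPKM in nitrate (-0.11 ± 0.23 against bleomycin, adjusted p = 0.833 by limma). Per 1000 FPKM of Col1a1, all 10 members were higher in bleomycin than in control without overlap, but so were 84.8% of all tested genes, so this count says little about the members. For Postn the ratios of libraries 1, 2 and 3 were 17.4, 23.8 and 21.8 per 1000 (control), 200.3, 165 and 189 per 1000 (bleomycin) and 109, 91.2 and 117 per 1000 (nitrate). Sparc moved little on this scale, with 489 to 501 in control, 573 to 683 in bleomycin and 628 to 794 in nitrate. Against the mean of the 10 fibroblast markers in place of Col1a1, 8 members were higher in bleomycin without overlap (63.5% of tested genes) and 1, Sparc, was lower (1.45%), by -0.32 on the log2 scale, so the direction of Sparc depended on the reference.

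The ratios to Col1a1 separated nitrate from bleomycin for the same 6 members as the levels themselves. Postn, Tnc, Tnn, Fn1, Spp1 and Cthrc1 were lower in nitrate without overlap, where 2.9% of all tested genes were, and Thbs1, Thbs2, Sparc and Comp overlapped. With the fibroblast markers as reference 6 members were again lower without overlap (3.74% of tested genes). The mean log2 ratio to Col1a1 differed by -0.81 for Postn, -2.03 for Tnc, -1.39 for Tnn, -1.06 for Fn1, -2.66 for Spp1 and -0.65 for Cthrc1. Each of these 6 differences had an exact permutation p = 0.1, the smallest that 3 libraries against 3 can give, and 0.12 after adjustment over 30 tests (two-sided). Against control, 9 members had a higher ratio in nitrate without overlap, where 86.8% of tested genes did, and Spp1 overlapped. With the fibroblast markers as reference Tnc, Sparc, Cthrc1 and Comp overlapped as well, Sparc at -0.26 on the log2 scale. The count against control thus depended on the reference.

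**Figure D4:**
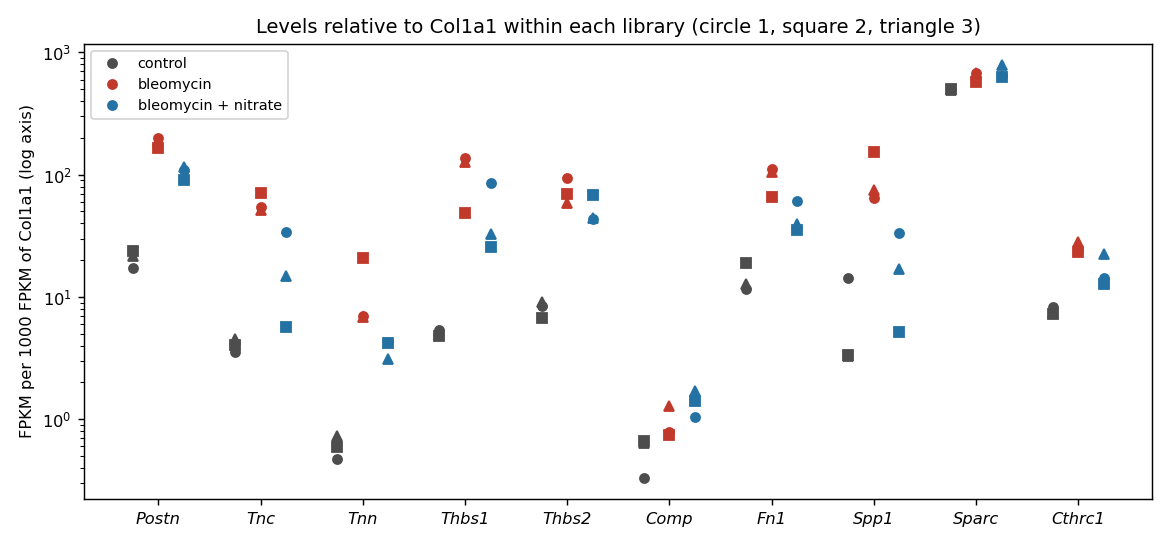
Level of each gene per 1000 FPKM of Col1a1 in the same library, on a log axis, for every control, bleomycin and nitrate library (symbols mark library numbers). Postn, Tnc, Tnn, Fn1, Spp1 and Cthrc1 have every nitrate point below every bleomycin point; for Postn these are 91.2 to 117 and 165 to 200.3.

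Markers of other cell types differed between the same libraries. The summed level of 10 macrophage genes was 310.1 to 466 FPKM in control, 831 to 1345 FPKM in bleomycin and 323 to 612 FPKM in nitrate. Lyz2 alone was 260 ± 53.2, 723 ± 226 and 297 ± 108 FPKM in the same order. With bleomycin 3 of 10 (Lyz2, Cd14 and Trem2) rose by limma, where 4.74% of all tested genes did. Between nitrate and bleomycin 9 of the 10 estimates were below 0. That of Gpnmb was above 0 (39.0 FPKM in bleomycin and 48.3 FPKM in nitrate). Over the 9 libraries, which share the group differences, the mean of the macrophage genes followed Spp1 (r = 0.81), Fn1 (r = 0.80), Tnc (r = 0.79) and Thbs1 (r = 0.77), given as a description. All 10 genes of the stress keratinocyte list, which the epidermis expresses when wounded, rose with bleomycin, where 4.74% of all tested genes did. Leukocytes also express S100a8, S100a9 and Il1b of this list, so it does not measure keratinocytes alone. The sum of the 10 genes was 214 to 412 FPKM in control, 2682 to 9280 FPKM in bleomycin and 1309 to 2147 FPKM in nitrate. The mean of this list followed the same members, Tnc (r = 0.76), Fn1 (r = 0.72) and Spp1 (r = 0.70). It followed Thbs1 (r = 0.92), Thbs2 (r = 0.87) and Postn (r = 0.85) more closely, and Tnn about as closely (r = 0.77). It ran opposite to Sparc (r = -0.80) and Comp (r = -0.75). The mean of the epidermal genes also followed Thbs2 (r = 0.89), Postn (r = 0.72) and Thbs1 (r = 0.71). None of the macrophage or stress keratinocyte genes was at 0 in every library. The part of macrophages, keratinocytes or other cells in the levels of the 10 members was not tested. Platelets store thrombospondin-1, and of 6 platelet genes 2 passed the filter and 0 were called, with Pf4 at 36.2 ± 15.4 FPKM in control, 39.3 ± 18.7 FPKM in bleomycin and 17.4 ± 7.16 FPKM in nitrate (-1.12 ± 0.46 against bleomycin, adjusted p = 0.253 by limma) and Gp1bb at 0 in every library.

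**Figure D5:**
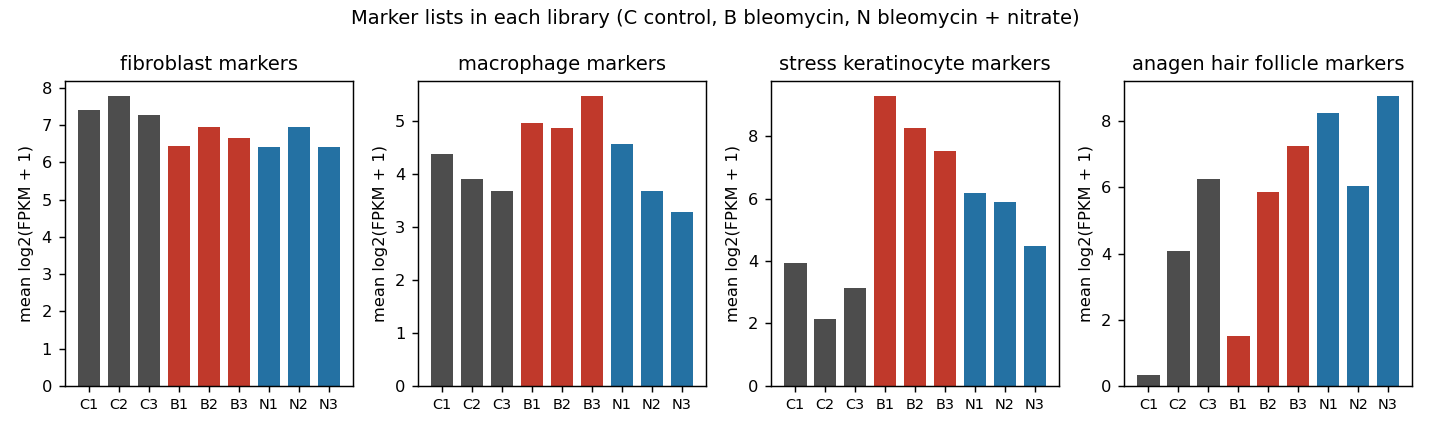
Mean log2(FPKM + 1) of 4 marker lists (panels) in each control (C), bleomycin (B) and nitrate (N) library, with bars from 0. Stress keratinocyte markers are at 7.54 to 9.31 in bleomycin and 2.14 to 3.94 in control, macrophage markers at 4.87 to 5.48 and 3.68 to 4.37, fibroblast markers at 6.43 to 6.95 and 7.27 to 7.80, and follicle markers vary from 0.31 to 6.26 within control.

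Of 22 relatives of the members, 15 passed the filter, and with bleomycin 3 rose, 1 fell and the median was -0.26. Among all tested genes 4.74% rose and 3.69% fell in this comparison. The risers were CCN family genes, which encode secreted signalling adaptors. Wisp1, a Wnt-induced member, measured 1.65, 1.92 and 2.08 FPKM in control 1, 2 and 3, 5.53, 6.69 and 5.69 FPKM in bleomycin 1, 2 and 3, and 3.85, 3.45 and 2.06 FPKM in nitrate 1, 2 and 3. Its bleomycin libraries lay above all others (1.27 ± 0.18, adjusted p = 0.00793 by limma), and leaving out any 1 library kept the call. Nov rose from 4.04 ± 1.31 to 21.6 ± 10.2 FPKM (adjusted p = 0.0139 by limma; 0.0514 without bleomycin 3). Ctgf, a target of TGF-beta and YAP signalling, rose from 16.8 ± 1.37 to 37.2 ± 15.1 FPKM (adjusted p = 0.0471 by limma) and missed the test without any 1 library other than bleomycin 2 (0.0547 to 0.127), with only the 2 groups in the fit (0.0745) and with no filter (0.1025). Tnxb, the tenascin of resting dermis that spaces collagen fibrils, fell from 29.1 ± 7.83 to 7.13 ± 1.57 FPKM (-1.87 ± 0.36, adjusted p = 0.0192 by limma), opposite to Tnc and Tnn, and missed the test without control 1 or 2 or bleomycin 1 or 2 (0.0518 to 0.0812). No relative passed the test in the comparisons with nitrate, although against control Tnxb passed it without nitrate 2 (-1.30, adjusted p = 0.0172) and Wisp1 with sample weights (0.59, adjusted p = 0.0441).

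All 18 receptor genes of the list passed the filter, and with bleomycin 2 rose, 2 fell and the median was 0.27, where 4.74% of all tested genes rose and 3.69% fell. Cd44, a receptor for hyaluronan and osteopontin, measured 24.4, 17.5 and 22.6 FPKM in control 1, 2 and 3, 56.9, 57.6 and 60.1 FPKM in bleomycin 1, 2 and 3, and 41.5, 32.0 and 34.4 FPKM in nitrate 1, 2 and 3. The 3 groups did not overlap, with nitrate between. Cd44 rose with bleomycin (1.41 ± 0.15, adjusted p = 0.00387 by limma), a call that held in all 20 alternatives, and was also higher in nitrate than in control (0.72 ± 0.15, adjusted p = 0.0294 by limma). Sdc1, the syndecan of epithelia, rose from 70.1 ± 18.7 to 156.9 ± 13.9 FPKM with bleomycin (adjusted p = 0.0168 by limma) and was 165.6 ± 32.2 FPKM in nitrate, also above control (adjusted p = 0.0197 by limma). Cd36, a thrombospondin receptor and fatty acid transporter, fell from 164 ± 22.7 to 70.9 ± 18.96 FPKM (adjusted p = 0.0240 by limma) and was as low in nitrate (70.2 ± 18.4 FPKM, adjusted p = 0.0286 against control by limma). Itga8, an integrin chain that binds fibronectin and tenascin-C, fell from 3.27 ± 0.207 to 1.46 ± 0.107 FPKM (adjusted p = 0.00886 by limma) and was 1.94 ± 0.290 FPKM in nitrate (adjusted p = 0.0338 against control by limma).

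Between nitrate and bleomycin no receptor was called, and 16 of the 18 estimates were below 0, with a median of -0.36 against -0.0029 for all tested genes. With bleomycin, the calls of Cd44 and Itga8 held without any 1 library, Sdc1 missed the test without control 1 or 2 or bleomycin 1 or 2 (0.0514 to 0.0702), and Cd36 without any control library or bleomycin 1 or 3 (0.0583 to 0.0960) and with no filter (0.0541). In nitrate against control, Cd44 missed it without any control library or nitrate 1 or 3 (0.0517 to 0.101), Sdc1 without control 1 or 2 or nitrate 1 or 3 (0.0517 to 0.0797) and Cd36 without any control library or nitrate 1 or 3 (0.0518 to 0.111). Cd44 and Cd36 also missed it there with no filter (0.0695 and 0.0667). With only the 2 groups in the fit Cd44 (0.07085), Cd36 (0.0533) and Sdc1 (0.0545) missed it there as well. Itga8 missed it there without any 1 library other than nitrate 2 (0.0503 to 0.126), with only the 2 groups in the fit (0.0771) and with no filter (0.0786). Markers of fat and vessel cells, which express Cd36, were lower as well. With bleomycin 1 of 10 fat cell genes and 2 of 10 endothelial genes fell, where 3.69% of all tested genes did. In nitrate against control 7 of 10 of each fell, where 4.9% of all tested genes did. Their part in the level of Cd36 was not tested.

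For each member, the tested genes whose log2(FPKM + 1) followed it most closely over the 9 libraries were ranked by Pearson's r, as a description of libraries that share the group differences. Sparc was followed by fibrillar collagen genes, Col1a1 and Col1a2 (r = 0.99 each), and by the carboxypeptidase gene Cpz (0.99). Fn1 was nearest to Bgn (0.97), which encodes the proteoglycan biglycan, then Mob3a (0.97) and Ltbp2 (0.96), a latent TGF-beta binding protein family member. Postn was nearest to Plat (0.97), the tissue plasminogen activator, then Pqlc3 (0.97) and Rab5if (0.96). Tnc was nearest to Smim3 (0.96), Crabp1 (0.95), a retinoic acid binding protein, and Gm18787 (0.95), and Tnn to Ephb2 (0.95), Arhgef16 (0.93) and Mmp12 (0.93), a macrophage elastase. Thbs1 was nearest to Ces2e (0.98), Pgam1 (0.97) and Commd7 (0.97), and Thbs2 to Hivep3 (0.97), the water channel gene Aqp5 (0.97) and Mal2 (0.96). Spp1 was nearest to Nek1 (0.97), Cyfip1 (0.95) and Tpm4 (0.95), Cthrc1 to Pofut2 (0.94), Zcchc17 (0.90) and Psmb6 (0.88), and Comp to Glrx5 (0.98), Gm42533 (0.96) and Gm19774 (0.94). No nearest gene was common to 2 members, and Col1a1 and Col1a2 were among the nearest of Sparc alone.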

How the data were processed

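RNA sequencing of mouse skin gave 9 libraries, grouped by their titles. The authors deposited 1 table of FPKM per gene and library. The genome build was mm10, per the submitters' processing notes, and no source used here names the aligner or counter. In each library 100% of the values above 0, multiplied by gene length, were whole multiples of 1 step within 0.01, which gave the reads of each gene. The library size implied by that step was 0.916 to 1.09 times their sum, a scaling not described in the sources used here. For the 102 symbols borne by several genes, every gene that passed the filter was tested. Where the gene lists were read by symbol, the gene of highest mean was taken.

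Genes with FPKM of at least 1 in at least 3 libraries entered a two-sided limma fit (limma 3.58.1, R 4.3.3; eBayes with trend and robust) of log2(FPKM + 1) on the 3 groups, and those with an adjusted p under 0.05 (Benjamini-Hochberg) were called. Ratios to Col1a1 were compared with exact permutation tests. The members and lists were chosen with earlier results of these data known. The genes named were the 10 members, called relatives and receptors, the 3 nearest genes of each member, and Col1a1; Tnr, Pf4, Gp1bb and marker genes were named after their values were seen. Promoters came from RefSeq (GRCm38.p6). The alternatives were a mean FPKM of at least 5 as the filter, no filter, pseudocounts of 0.5 and 0.1, median-of-ratios scaling, quantile normalization, a fit of only the groups compared, sample weights, a block for the replicate number, voom on the recovered reads, and libraries left out. The plots used Python 3.11.15 and matplotlib 3.10.9.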

Additional observations from a re-analysis of the deposited data

How the results depend on the processing

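With 3 libraries a group, counts of calls moved strongly. Between bleomycin and control 1234 genes were called, against 676 with no filter, 747 with a mean FPKM of at least 5, 1947 with sample weights, 137 without both control 1 and bleomycin 1, and 334 (without control 2) to 1539 (without nitrate 2) when 1 library was left out. Without control 1 or 3 the count was 629 or 595, and without bleomycin 1, 2 or 3 it was 534, 695 or 525. Of the members 7 were called, against 4 with no filter (Tnc, Fn1 and Tnn lost), 0 without both control 1 and bleomycin 1, and 3 to 7 when 1 library was left out. Between nitrate and bleomycin 0 genes were called, against 10 with the replicate number as a block and 0 to 37 when 1 library was left out (37 without nitrate 1, 13 without bleomycin 2, 4 without bleomycin 1 or 3), and 0 members were called in each of these settings. Between nitrate and control 1249 genes were called, against 294 with no filter, 306 with only the 2 groups in the fit, 2085 with sample weights, 23 without both control 1 and bleomycin 1, and 45 (without control 2) to 2882 (without nitrate 2) when 1 library was left out. Without control 1 or 3 the count was 83 or 711, without bleomycin 3 it was 642, and without nitrate 1 or 3 it was 474 or 170. Of the members 1 was called there, against 2 with quantile normalization, 2 with the block, 3 with sample weights, 2 with voom on the recovered reads, 0 without both control 1 and bleomycin 1, and 0 to 2 when 1 library was left out. The cause of these shifts was not tested. Some settings hold fewer libraries or another number of genes by construction. With no filter 32197 genes were tested and with a mean FPKM of at least 5 there were 8381, against 14645. Of 9 pairs of libraries with the same number, 5 deviated together by an r over 0.1 (the 3 pairs of number 3, at 0.34 to 0.44, among them) and 4 did not (r from -0.39 to 0.52 in all), and 3 of 9 libraries were closest to their own number, so the numbers were not taken as pairs. With the block Tnc was not called between bleomycin and control (adjusted p = 0.058 by limma), and Postn was called between nitrate and control (adjusted p = 0.0431 by limma). Ctgf and, between nitrate and control, Itga8 were not called with the block either (adjusted p = 0.0667 and 0.0553 by limma). No called member changed direction in any of these alternatives. Comp, at 30 to 101 reads per library, is the member whose level counting error limits most.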
